A study of Mus musculus with 8 samples.

Results

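The elastic fibre genes described here are elastin (Eln), the fibrillins Fbn1 and Fbn2, the fibulins Fbln1, Fbln2, Fbln5 and Efemp2, the microfibril-associated glycoproteins Mfap2 and Mfap5, and the emilin gene Emilin1. They were chosen by name, and all 10 had a row in a table of 20681 genes and passed the filter on low values, as did 14949 genes in all. The 8 libraries were made from mouse knee joints, 4 of them labelled as controls and 4 as knockouts, and each held 13991000 to 17411617 reads assigned to genes. Per the labels, every joint came from Acan-Cre;Loxl2 fl/fl mice, where Cre under Acan, the aggrecan gene, removes Loxl2 from aggrecan-expressing cells, chiefly chondrocytes, so that other cell types of the joint would keep the gene. The control mice were vehicle-treated, what the other mice received is not spelled out, and the library names give Vehicle, DMM and LOXL2wt for the first group and KO, DMM and LOXL2ko for the second. All 8 names carry DMM, which usually means surgical destabilisation of the knee's medial meniscus. Age and the animals behind each library are not spelled out, so the p-values measure the spread between these samples.

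Elastic fibres give skin, arteries, ligaments and joint capsules their recoil. They consist of an amorphous core of crosslinked elastin on a scaffold of microfibrils, which are polymers of fibrillin decorated with microfibril-associated glycoproteins. Fibulins and emilins sit at the interface, where they hand elastin monomers and lysyl oxidases to the scaffold, and microfibrils also store latent TGF-beta through the latent TGF-beta binding proteins. Lysyl oxidases, the enzyme family to which LOXL2 belongs, oxidise lysines of elastin and collagen so that the chains can crosslink.

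Values below are normalised read counts, that is, reads per gene scaled by 1 size factor per library. Differences are log2 differences of the group labelled knockout from the control group, from limma fitted to log2(value + 1) over all 14949 genes with Benjamini-Hochberg adjustment, with calls made where the adjusted p was under 0.05. Loxl2, the targeted gene, had a higher, not lower, mean in the libraries labelled knockout, and the groups are named by label only. It read 282, 349, 1135 and 311 in the controls, given here and below in replicate order, and 893, 1468, 960 and 1518 in the libraries labelled knockout. Control replicate 3 lay above knockout replicates 1 and 3. Cells that do not express aggrecan would keep Loxl2, so whole-joint values do not test the deletion. Markers of the main joint tissues were present, with 7 of 8 chondrocyte markers, 8 of 8 fibroblast markers and 10 of 10 skeletal muscle markers abundant enough to test. Reads of Y-linked genes marked control replicates 3 and 4 and knockout replicate 2 as male and the other 5 libraries as female, so sex was not balanced between the groups. Tissue markers differed between the groups as well: 7 of 8 fibroblast markers were called higher with a median difference of 1.49. Skeletal muscle markers had lower means in 10 of 10 cases, with a median of -0.74, and 3 of them were called lower. Of 5 osteoblast markers 3 were called higher (median 1.63), and of 6 erythroid markers 6 had lower means (median -1.97) and 0 were called by limma, edgeR or DESeq2, although 6 had an unadjusted limma p under 0.05. In whole joints, more cells of a type and more RNA per cell cannot be told apart.

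Fibulin 1, fibulin 4 (Efemp2), emilin 1 and microfibril-associated glycoprotein 1 (Mfap2) were 2.27-fold to 3.08-fold more abundant in the libraries labelled knockout, while elastin and the fibrillins themselves were not called. By the same ratio of means, Fbn1 stood at 2.41-fold, within that range, Fbn2 at 1.54-fold and Eln at 1.3-fold. The fibrillins varied widely within the groups. All 10 members had a higher mean in the group labelled knockout, with a median log2 difference of 0.89 against 0.00 over all genes tested. Of the 10 members 4 were called, all of them higher. Over all genes tested, 11.6% were called higher, 11.6% were called lower and 23.2% were called in either direction. The same 4 members were those whose groups did not overlap, a pattern found in the higher direction for 11.7%, in the lower direction for 13.4% and in either direction for 25.1% of all genes tested. Under a scaling computed without muscle, blood and the 50 highest genes, the median of all genes moved to 0.15 and 2727 of 3504 called genes were higher, against 1732 of 3461 in the reported fit, and 4 members were called. The fit with a sex term, chosen after seeing the data, called 5 members, and a fit to the 5 female libraries called 4. Over all genes the female libraries gave 905 calls. The number with the sex term is not given here, so its 5 members cannot be set beside a share of all genes.

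**Figure D1:**
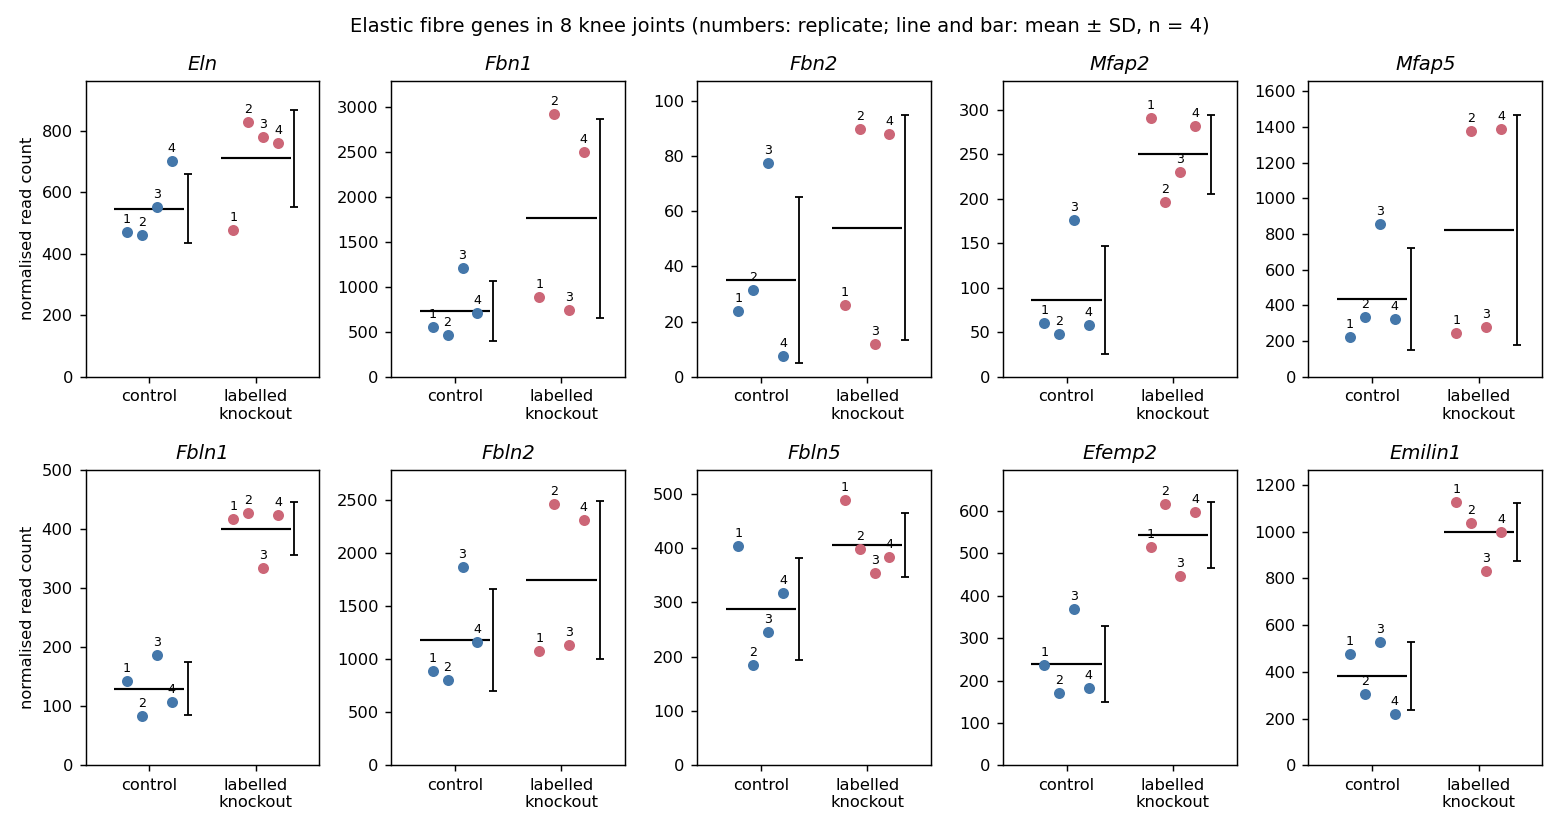
Normalised read count (vertical axes, from 0) of each of the 10 elastic fibre genes in the 4 control libraries (blue) and the 4 libraries labelled knockout (red), with replicate numbers on the points and the mean ± SD as line and bar. Mfap2, Fbln1, Efemp2 and Emilin1 show groups that do not overlap, whereas Fbn1, Fbn2, Mfap5 and Fbln2 are highest in knockout replicates 2 and 4 and control replicate 3.

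Fbln1, Efemp2, Emilin1 and Mfap2 were the called members, and the 250 bases before a RefSeq start site (GRCm38.p6) are shown for 3 of them, each on its gene's strand. RefSeq lists 2 start sites for Fbln1, 3 for Efemp2 and 2 for Mfap2, and the one nearest to the gene's GENCODE start was taken. The windows of Emilin1, Fbn1 and Fbln2 lie wholly within annotated exons and are not shown. Capitals mark matches, on either strand, to 5 motifs: TGANTCA for the AP-1 factors, GGAATG for the TEAD factors, CCAAT for the box of that name, GGGCGG for the GC box bound by Sp factors, and TATAAA for the TATA box. Fbln1 is shown from chr15:85205699-85205948, Efemp2 from chr19:5473696-5473945 and Mfap2 from chr4:141010174-141010423, whose last 6 bases are annotated as exon, all on the plus strand.
Fbln1: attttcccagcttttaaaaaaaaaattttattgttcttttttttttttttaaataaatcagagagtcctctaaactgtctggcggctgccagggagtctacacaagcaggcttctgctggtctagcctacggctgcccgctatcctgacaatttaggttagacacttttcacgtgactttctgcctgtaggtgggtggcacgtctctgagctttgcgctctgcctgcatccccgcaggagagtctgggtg
Efemp2: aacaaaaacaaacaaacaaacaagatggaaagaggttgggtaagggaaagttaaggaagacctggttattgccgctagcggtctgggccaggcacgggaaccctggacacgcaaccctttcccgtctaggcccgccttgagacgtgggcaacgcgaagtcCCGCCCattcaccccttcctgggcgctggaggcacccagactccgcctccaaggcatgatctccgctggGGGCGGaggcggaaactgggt
Mfap2: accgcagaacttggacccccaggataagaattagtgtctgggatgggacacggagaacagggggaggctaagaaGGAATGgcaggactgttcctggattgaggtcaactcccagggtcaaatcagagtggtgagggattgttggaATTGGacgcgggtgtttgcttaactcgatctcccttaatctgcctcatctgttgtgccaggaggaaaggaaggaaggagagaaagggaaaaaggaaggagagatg

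These windows had no motif of the search in common. Efemp2 held 2 GC boxes, Mfap2 held 1 TEAD motif and 1 CCAAT box, and Fbln1 and Emilin1 held none of the 5 motifs in this window. The search covered 7 of the 10 members, Fbn1, Fbln2 and Fbln5 being the other 3. Fbn2 was left out of the search by name, and Eln and Mfap5 had no matched entry. Among the 7 members searched, the GC box occurred in 4, the CCAAT box in 2, the TEAD motif in 1, and the AP-1 and TATA motifs in 0. The GC box was held by Efemp2, by Fbln5, and by Fbn1 and Fbln2, whose windows lie wholly within exons. For Fbln5, the bases checked after its start site were not found in a GENCODE transcript. Among all 32851 promoter windows of the same length, 32.7% held the GC box, 33.8% the CCAAT box, 12.6% the TEAD motif, 6.75% the AP-1 motif and 12.4% the TATA box. GC content was 46.4% for Fbln1, 59.2% for Efemp2, 63.2% for Emilin1 and 51.2% for Mfap2, around a median of 52.4% over all windows. The value of Emilin1 comes from a window wholly within exons.

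Elastin, the core protein, was among the least changed members. Eln (chromosome 5, 134702593 to 134747323, minus strand) read 469, 461, 552 and 702 in the controls (replicates 1 to 4 in order) and 477, 827, 778 and 759 in the group labelled knockout. Of the libraries labelled knockout, 3 lay above every control library, while replicate 1 lay among the controls. The means were 546 ± 112 and 710 ± 158 (SD, n = 4 each), a log2 difference of 0.37 (SE 0.19, limma adjusted p = 0.190). Without knockout replicate 1 the difference was 0.55 and was called (limma adjusted p = 0.0394), the only call of Eln in 21 alternative settings. Over the 8 fits without a library the difference was 0.28 to 0.55 (limma adjusted p = 0.0394 to 0.369). An antisense gene, Gm30003, overlaps exons of Eln, and the use of strand in counting is not given in the sources used here, so reads of the pair were not necessarily kept apart.

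The fibrillins, which polymerise into the microfibril scaffold, were not called and varied widely within the groups. Fbn1 (chromosome 2, 125300594 to 125507993, minus strand) read 549, 461, 1206 and 705 in the control libraries and 883, 2922, 741 and 2501 in the libraries labelled knockout. Knockout replicates 2 and 4 stood above all other libraries, and replicates 1 and 3 fell below control replicate 3. The log2 difference was 1.12 (SE 0.46, limma adjusted p = 0.106). Fbn1 was called in 2 of 21 alternative settings, without knockout replicate 3 (1.45, limma adjusted p = 0.0414) and with the sex term (1.38, limma adjusted p = 0.0288). Over the 8 fits without a library its difference was 0.79 to 1.45 (limma adjusted p = 0.0414 to 0.254). Opposite exons of Fbn1 lies Gm9913, whose highest value was 6.06.

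Fbn2, the fibrillin best known from embryonic tissue, was the scarcest member. Fbn2 (chromosome 18, 58008623 to 58210487, minus strand, with Gm26507 on the opposite strand) read 23.8, 31.3, 77.6 and 7.67 in the control libraries and 25.9, 89.8, 11.96 and 88.0 in the libraries labelled knockout, from 7 to 105 reads. Its high libraries were again knockout replicates 2 and 4 and control replicate 3. The log2 difference was 0.59 (SE 0.76, limma adjusted p = 0.603), and the spread within groups exceeded the difference between them.

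Of the microfibril-associated glycoproteins, small proteins that bind fibrillin, Mfap2 was called higher and Mfap5 was not called; the test of the difference between them is given with the ratios below. Mfap2 (chromosome 4, 141010418 to 141015984, plus strand) read 60.6, 48.5, 177 and 58.1 in the control libraries and 291, 197, 231 and 282 in the libraries labelled knockout. All 4 of the latter exceeded every control library, although control replicate 3 stood well above the other controls. The means were 85.9 ± 60.7 and 250 ± 44.4 (SD, n = 4 each), a log2 difference of 1.72 (SE 0.36, limma adjusted p = 0.0111). Mfap5 (chromosome 6, 122505845 to 122529290, plus strand) read 224, 334, 859 and 321 in the control libraries and 247, 1376, 277 and 1389 in the libraries labelled knockout. Within the group labelled knockout, replicates 2 and 4 were at least 4.96-fold above replicates 1 and 3, which lay within the range of the controls. The log2 difference was 0.67 (SE 0.63, limma adjusted p = 0.471).

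Among the fibulins, Fbln1 and Efemp2 rose and Fbln2 and Fbln5 were not called. Fbln1 (chromosome 15, 85205949 to 85286535, plus strand), the gene of a fibulin that binds fibronectin and elastin, read 143, 83.8, 187 and 107 in the control libraries and 418, 427, 334 and 424 in the libraries labelled knockout. The groups were far apart: the lowest library labelled knockout exceeded the highest control. The means were 130 ± 44.9 and 401 ± 44.7 (SD, n = 4 each), a log2 difference of 1.67 (SE 0.22, limma adjusted p = 0.00397). Efemp2 (chromosome 19, 5473954 to 5482517, plus strand) encodes fibulin 4, which brings lysyl oxidase to elastin and without which elastic fibres do not form. It read 236, 172, 367 and 182 in the control libraries and 516, 616, 446 and 596 in the libraries labelled knockout. The groups did not overlap, and control replicate 3 was again the highest control. The means were 239 ± 90.0 and 543 ± 78.1 (SD, n = 4 each), a log2 difference of 1.24 (SE 0.23, limma adjusted p = 0.00744). Exons of Mus81 overlap Efemp2 on the opposite strand, and Mus81 read 293 to 344 in the libraries labelled knockout and 320 to 417 in the controls. Whether reads of one were counted to the other was not tested.

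Fbln2, a fibulin of vessel walls and perichondrium, had the highest counts of the 4 member fibulins. Fbln2 (chromosome 6, 91212455 to 91272540, plus strand) read 886, 805, 1862 and 1159 in the control libraries and 1074, 2455, 1131 and 2312 in the libraries labelled knockout. Its order of libraries was that of Fbn1 at the top, with knockout replicates 2 and 4 first and control replicate 3 next. The log2 difference was 0.54 (SE 0.33, limma adjusted p = 0.262). Fbln5 (chromosome 12, 101746565 to 101819055, minus strand), whose protein links elastin to cell-surface integrins, read 405, 185, 246 and 317 in the control libraries and 489, 398, 353 and 384 in the libraries labelled knockout. Only control replicate 1 reached into the range of the group labelled knockout. The log2 difference was 0.54 (SE 0.22, limma adjusted p = 0.0971). It was called in 1 of 21 alternative settings, without control replicate 1 (0.73, limma adjusted p = 0.0307). Over the 8 fits without a library it was 0.35 to 0.73 (limma adjusted p = 0.0307 to 0.218).

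Emilin1 encodes a glycoprotein at the boundary of elastin and microfibrils that also restrains TGF-beta processing. Emilin1 (chromosome 5, 30913402 to 30921277, plus strand) read 478, 307, 527 and 220 in the control libraries and 1126, 1037, 831 and 999.9 in the libraries labelled knockout. Every library labelled knockout exceeded every control. The means were 383 ± 144 and 998 ± 124 (SD, n = 4 each), a log2 difference of 1.46 (SE 0.25, limma adjusted p = 0.00604).

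The 4 called members kept their calls in all 8 fits that left out a library, under every scaling and filter tried, with edgeR and with DESeq2, with the replicate block, with the sex term and in the female libraries. Over these 20 settings the log2 difference ranged from 1.48 to 1.87 for Fbln1, from 1.10 to 1.47 for Efemp2, from 1.22 to 1.64 for Emilin1 and from 1.52 to 2.28 for Mfap2. The exception was a fit with the mean of the 10 skeletal muscle markers as a covariate, in which 0 genes of the whole table were called and the differences were 0.68, 0.33, 0.53 and 0.91. Of the variance of that muscle score 88.4% lay between the groups, with 16.76 to 16.94 in the controls and 16.01 to 16.43 in the group labelled knockout on the log2 scale, so the score and the group cannot be told apart.

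Per length, Fbln2 and Mfap5 had the highest means and Fbn2 the lowest in both groups, while the order between them changed. Eln lay below Fbn1, Efemp2 and Fbln1 only in the libraries labelled knockout. Many neighbours differed by less than the spread between libraries. In the control libraries the mean normalised count per kilobase of exon was 185 ± 75.5 for Fbln2, 121 ± 80.0 for Mfap5, 77.6 ± 29.2 for Emilin1, 71.0 ± 50.1 for Mfap2, 67.5 ± 13.8 for Eln, 63.1 ± 23.8 for Efemp2, 60.2 ± 27.4 for Fbn1, 41.7 ± 13.7 for Fbln5, 29.8 ± 10.3 for Fbln1 and 2.66 ± 2.27 for Fbn2 (SD, n = 4). Each step between neighbours was smaller than the larger of their SDs, except that from Fbln1 down to Fbn2. These SDs are between libraries: within libraries, Fbln2 lay above Mfap5 in all 4 controls and in 3 of those labelled knockout. In the libraries labelled knockout Fbln2 led with 274 ± 117, followed by Mfap5 with 229 ± 180, Mfap2 with 206 ± 36.7, Emilin1 with 202 ± 25.0, Fbn1 with 145 ± 91.7 and Efemp2 with 143 ± 20.6. Below these came Fbln1 with 91.7 ± 10.2, Eln with 87.7 ± 19.5, Fbln5 with 58.7 ± 8.42 and Fbn2 with 4.08 ± 3.09. The steps from Efemp2 to Fbln1, from Eln to Fbln5 and from Fbln5 to Fbn2 exceeded the larger SD there. Lengths were those of all annotated exons joined, 8098 bases for Eln and 12128 for Fbn1, so a gene with long rare isoforms appears lower than it is.

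As shares of the mixture, Fbln2 was lower and Fbln1 higher in every library labelled knockout than in any control. Of the summed per-length level of the 10 members, Eln held 10.1 ± 3.26% in the controls and 6.36 ± 2.07% in the group labelled knockout, Fbln2 held 25.6 ± 2.54% and 18.4 ± 2.92%, Fbln1 held 4.21 ± 0.788% and 6.67 ± 1.51%, and Mfap2 held 9.15 ± 2.496% and 15.4 ± 5.49% (SD, n = 4 each). The shares of Eln and of Mfap2 overlapped between the groups, and for Fbln1 the highest control (5.386%) lay just under the lowest library labelled knockout (5.391%). The shares are given as a description. Together the members took 0.0215%, 0.0167%, 0.0372% and 0.0225% of all values in the controls (replicates 1 to 4 in order) and 0.0398%, 0.0756%, 0.0337% and 0.0735% in the group labelled knockout, so control replicate 3 lay above knockout replicate 3.

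Whether related members differed in response was examined through 5 ratios within each library, in which library scaling cancels except for the pseudocount. The test was an exact two-sided permutation test over the 70 assignments of libraries, whose smallest possible p is 0.0286. The log2 ratio of Fbln2 to Fbln1 was 2.63, 3.25, 3.31 and 3.42 in the control libraries and 1.36, 2.52, 1.76 and 2.44 in the libraries labelled knockout. It was lower in every library labelled knockout than in any control, by -1.13 on average (exact permutation p = 0.0286, adjusted over the 5 ratios p = 0.143). It did not pass after adjustment. With no other ratio at the smallest possible p, none of the 5 can pass, so the adjusted test could not decide for this ratio.

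The log2 ratio of Mfap5 to Mfap2 was 1.87, 2.76, 2.28 and 2.45 in the control libraries and -0.23, 2.80, 0.27 and 2.30 in the libraries labelled knockout. The ratio was lowest in replicates 1 and 3 labelled knockout, while replicates 2 and 4 lay within or just above the range of the controls. These ratios are of counts not divided by length; per kilobase of exon, Mfap2 stood at 240.5 and Mfap5 at 68.9 in knockout replicate 1, and at 190.4 and 77.3 in knockout replicate 3. The mean difference was -1.06 (exact permutation p = 0.343, adjusted over the 5 ratios p = 0.429). For Fbln5 to Efemp2 the difference was -0.69 (exact permutation p = 0.114, adjusted p = 0.286), for Eln to Fbn1 -0.75 (exact permutation p = 0.257, adjusted p = 0.429) and for Fbn2 to Fbn1 -0.52 (exact permutation p = 0.429, adjusted p = 0.429). For these 4 ratios the groups overlapped.

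**Figure D2:**
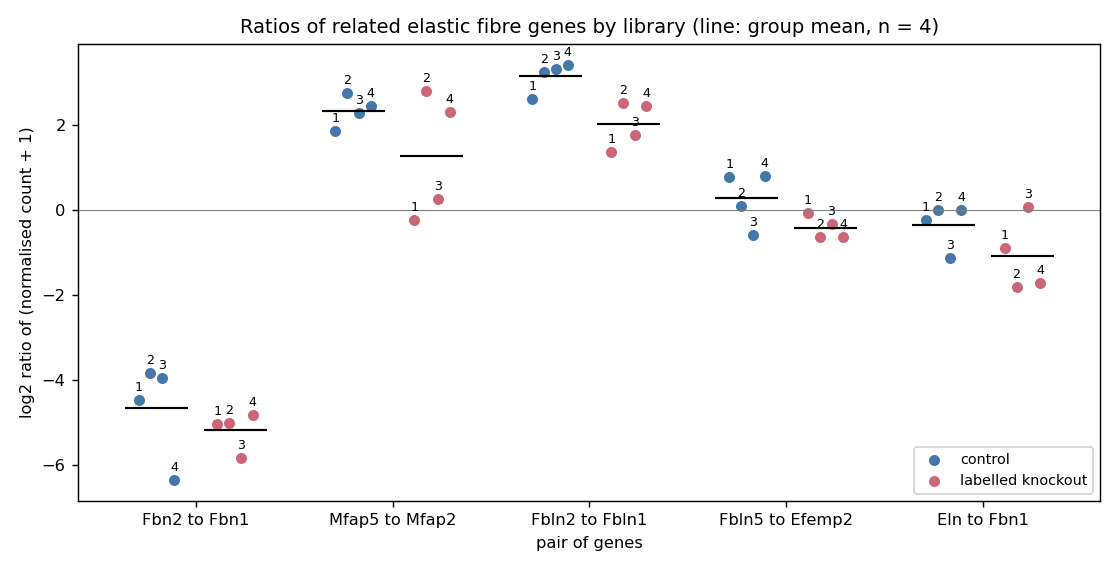
Log2 ratio (vertical axis) of 5 pairs of related elastic fibre genes in each control library (blue) and each library labelled knockout (red), with replicate numbers and group means as lines. The groups are apart only for Fbln2 to Fbln1, and the Mfap5 to Mfap2 ratio splits the libraries labelled knockout into replicates 1 and 3 near 0 and replicates 2 and 4 above 2.

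The profiles over the 8 libraries were then compared between members. Likeness was measured as the root mean square difference between log2 values centred on each gene's mean. The closest members were Efemp2 and Fbln1 (0.24), Efemp2 and Emilin1 (0.25), Emilin1 and Fbln1 (0.25) and Fbln1 and Mfap2 (0.34), which are the called genes. Profiles centred over all 8 libraries include the group difference, so called genes of like difference are close partly by construction. Fbn1 was closest to Fbln2 (0.38) and Mfap5 to Fbn1 (0.43). The closest members of Eln and Fbln5 were Fbln2 (0.43) and Eln (0.46). Outside the members, the tested gene closest to Fbn1 was Cd248 (0.20), which encodes endosialin, a surface protein of fibroblasts and pericytes. The closest to Emilin1 was Rcn3 (0.09), a calcium-binding protein of the endoplasmic reticulum, and the closest to Fbln1 was Scarf2 (0.12). Mfap5 had Cd80 (0.26), Fbn2 had Gldn (0.45), Fbln2 had Pde3a (0.13) and Mfap2 had Fam167a (0.18). The remaining 3 were Asphd2 for Efemp2 (0.09), Ccdc32 for Eln (0.09) and Pld4 for Fbln5 (0.13). A gene that varies little is close to many others, and 6386 genes were closer to Eln than its closest member was, against 42 for Fbn1 and 12 for Mfap5.

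**Figure D3:**
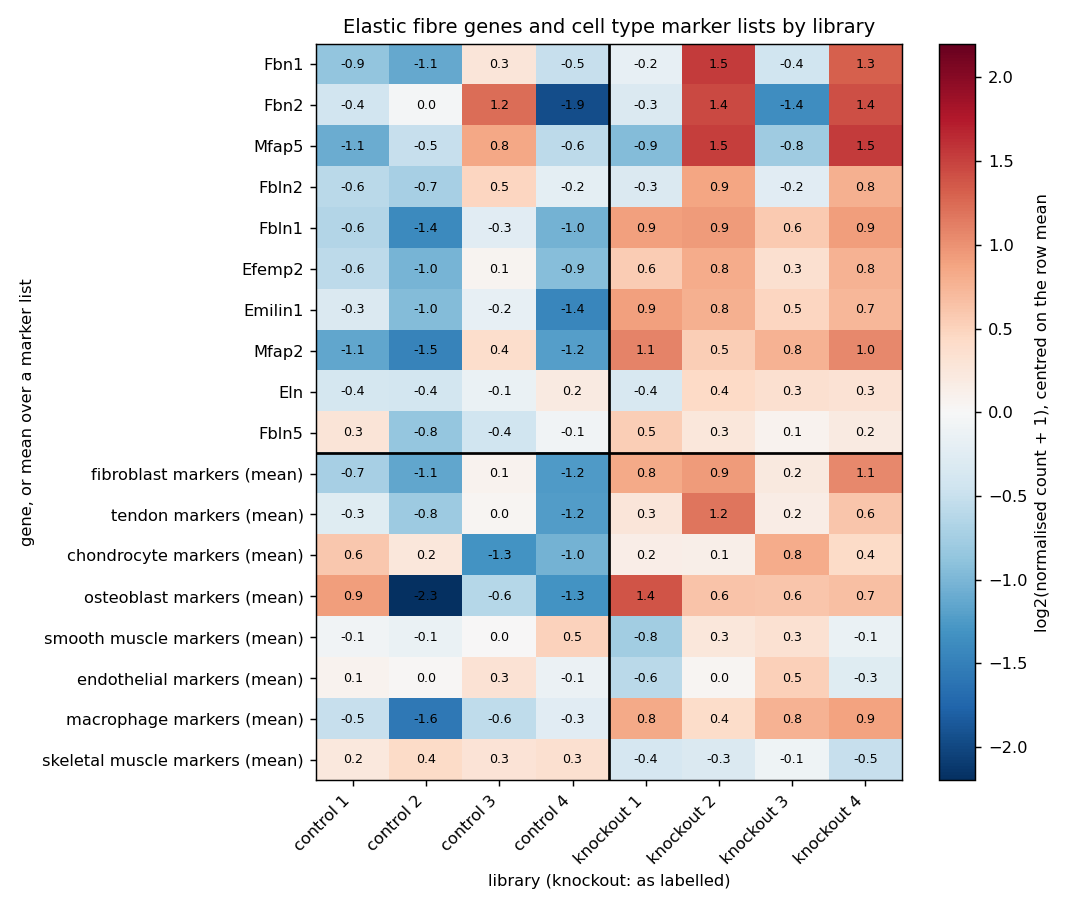
Heat map of log2(normalised count + 1), centred on each row's mean, for the 10 elastic fibre genes (upper rows) and the means of 8 cell type marker lists (lower rows) in the 8 libraries (columns). Fbn1, Fbn2, Mfap5 and Fbln2 share high values in control replicate 3 and knockout replicates 2 and 4. Fbln1, Efemp2, Emilin1 and Mfap2 are higher in all 4 libraries labelled knockout than in any control, as are the fibroblast, macrophage and tendon marker means.

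Markers of cells that make elastic fibres were set beside these profiles. The fibroblast marker mean was 11.5, 11.1, 12.3 and 11.02 in the control libraries and 13.1, 13.2, 12.5 and 13.3 in the libraries labelled knockout, without overlap, a difference of 1.53. Subtracting it library by library left 8 of the 10 members with a lower mean in the group labelled knockout, with Eln at -1.16, Fbln2 at -0.98, Fbln5 at -0.98, Fbn2 at -0.93, Mfap5 at -0.86 and Fbn1 at -0.41. The called members lay nearest to 0, with Efemp2 at -0.29, Emilin1 at -0.07, Fbln1 at 0.15 and Mfap2 at 0.20. The same 1.53 was taken from every member's log2 difference, so the order of the members did not change. The groups then overlapped for 9 of the 10, Fbln2 being lower without overlap, and the part of the fibroblast markers in the members' differences was not tested.

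Smooth muscle and endothelial markers, from the vessel walls in which elastin is also made, were not called higher. Of 6 smooth muscle markers 1 was called lower and 0 higher, with a median difference of -0.10, and of 6 endothelial markers 0 were called by limma, edgeR or DESeq2 and 0 had an unadjusted limma p under 0.05, with a median of -0.14. The smooth muscle list includes Des, which skeletal muscle also expresses. Of 3 tendon markers 2 were called higher (median 1.15). The tendon marker mean was 6.49, 5.97, 6.80 and 5.54 in the controls and 7.03, 7.94, 6.93 and 7.38 in the group labelled knockout, without overlap. It was highest in knockout replicates 2 and 4, as Fbn1 and Mfap5 were, but the part of tendon in those values was not tested. Of 7 tested chondrocyte markers 1 was called higher (median 0.79), and their mean was lowest in control replicates 3 and 4 (6.12 and 6.4, against 7.57 to 8.27 in the other libraries).

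The rest of the elastic fibre pathway was examined through 5 lists, of which 36 genes were tested and 16 were called, all higher in the libraries labelled knockout, with a median difference of 0.91. Over all genes tested, 11.6% were called higher and 23.2% in either direction, shares that stand beside each list count below. Of the pathway genes, 9 were called without control replicate 2 or knockout replicate 4, and 10 without control replicate 4. Of 16 other microfibril and elastic fibre proteins 13 were higher, 3 were called higher and 0 lower. Mfap4, which binds elastin and fibrillin, had means of 92.5 ± 37.3 and 240 ± 39.5 (log2 difference 1.45, limma adjusted p = 0.00955). Fkbp10, a prolyl isomerase chaperone of elastin and collagen, had means of 499 ± 188 and 1217 ± 239 (1.35, limma adjusted p = 0.0107), and Adamts10, which acts on fibrillin microfibrils, had means of 433 ± 128 and 732 ± 59.7 (0.80, limma adjusted p = 0.0153). For each of these the groups did not overlap, though exons of Mfap4 and Fkbp10 overlap those of Mapk7 and Nt5c3b. Adamts10 was not called in the female libraries alone (0.82, limma adjusted p = 0.115). Fbln7 was not called (1.06, limma adjusted p = 0.0674), and its libraries followed Fbn1, with 825, 1573, 698 and 1678 in the group labelled knockout and 1020 in control replicate 3.

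The latent TGF-beta binding proteins share the domain structure of fibrillins and anchor latent TGF-beta to microfibrils. Of these 4 genes 1 was called. Ltbp1 read 344, 290, 515 and 398 in the control libraries and 811, 769, 563 and 814 in the libraries labelled knockout, without overlap (log2 difference 0.95, SE 0.18, limma adjusted p = 0.00880). Ltbp2, whose protein binds fibulin 5, read 486, 536, 1357 and 667 against 888, 2021, 649 and 2777, again highest in knockout replicates 2 and 4 (0.94, SE 0.47, limma adjusted p = 0.166). Ltbp3 (0.47, limma adjusted p = 0.0751) and Ltbp4 (0.38, limma adjusted p = 0.112) were not called.

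Of the 5 lysyl oxidase genes 4 were called higher. Lox, the main elastin crosslinker, read 535, 299, 577 and 159 in the control libraries and 1640, 1425, 1160 and 1531 in the libraries labelled knockout, and Loxl1, which is tethered to elastin by fibulin 5, read 634, 498, 991 and 389 against 1260, 1610, 1043 and 1902. Neither overlapped between the groups, and their log2 differences of 2.03 and 1.26 stood beside 0.37 for their substrate Eln. Loxl3 had a difference of 1.03 (limma adjusted p = 0.0197), not called on leaving out control replicate 2, or replicate 2 or 4 labelled knockout (limma adjusted p = 0.0506 to 0.0602). The call of Loxl2 (1.44, limma adjusted p = 0.0294) was lost under the replicate block (limma adjusted p = 0.0513), with edgeR (edgeR adjusted p = 0.0669), with DESeq2 (DESeq2 adjusted p = 0.0659) and on leaving out control replicate 1, 2 or 4, or replicate 2 or 4 labelled knockout (limma adjusted p = 0.0663 to 0.0847).

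**Figure D4:**
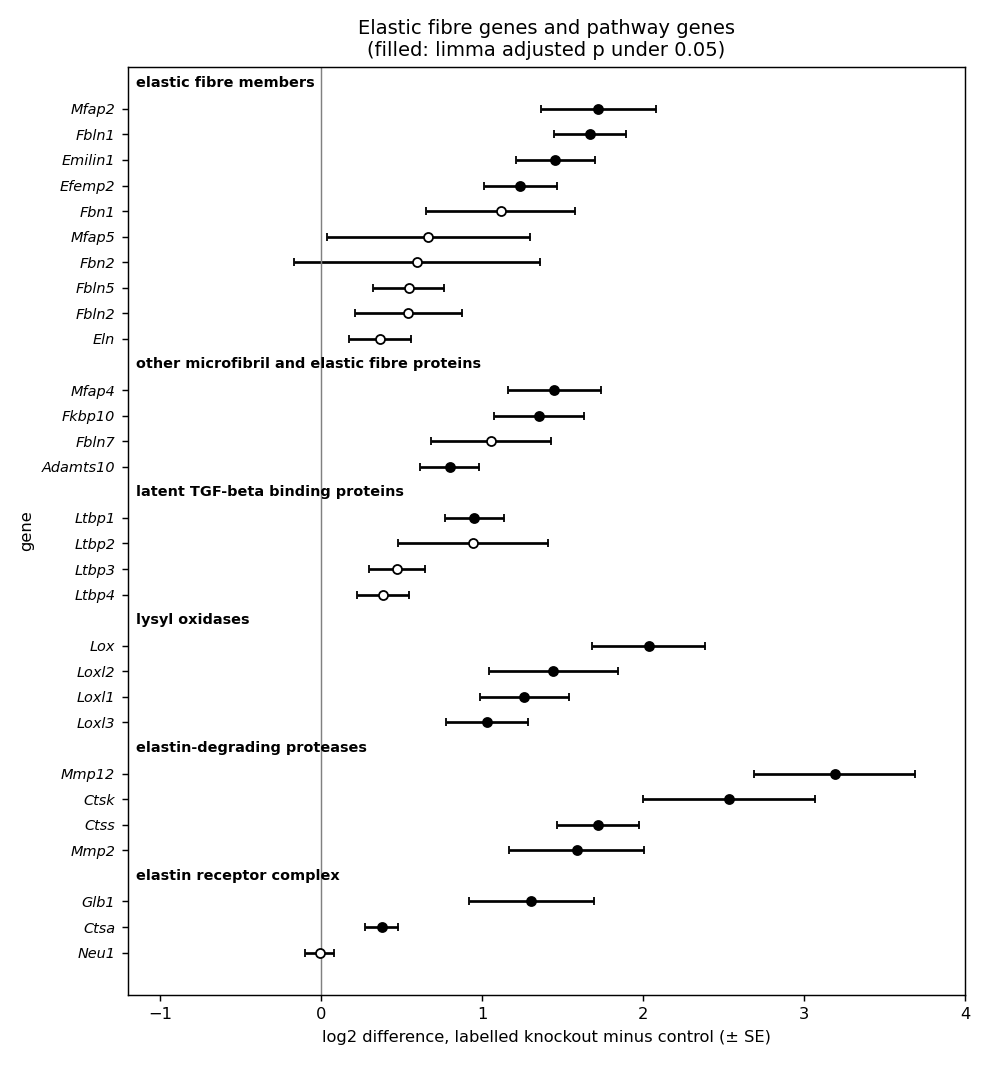
Log2 difference of the group labelled knockout from the control group (horizontal axis, with standard errors) for the 10 elastic fibre genes and for up to 4 genes from each of 5 pathway lists, filled where the limma adjusted p is under 0.05. Mfap2, Fbln1, Emilin1 and Efemp2 lead the members at 1.24 to 1.72, Eln is lowest at 0.37, and the elastin-degrading proteases reach 3.19.

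Elastin-degrading proteases showed the largest differences of the pathway. Of 8 tested genes 6 were called higher and 0 lower. The other 2, the neutrophil proteases Elane (-1.77, limma adjusted p = 0.129) and Prtn3 (-0.34, limma adjusted p = 0.762), had lower means and were not called. Mmp12, the macrophage metalloelastase, read 13.0, 11.1, 20.6 and 15.3 in the control libraries and 81.8, 274, 293 and 60.7 in the libraries labelled knockout, a log2 difference of 3.19 (SE 0.50, limma adjusted p = 0.00501). Ctsk, the cathepsin of osteoclasts, had means of 2166 ± 1842 and 11090 ± 5793 (2.53, limma adjusted p = 0.0114), and its call was lost in the female libraries (2.46, limma adjusted p = 0.0696). Ctss, a cathepsin of macrophages, had means of 273 ± 107 and 853 ± 114 (1.72, limma adjusted p = 0.00438). Mmp2, a gelatinase made by fibroblasts, had a difference of 1.59 (limma adjusted p = 0.0245), which was not called under the replicate block or on leaving out control replicate 1, 2 or 4, or replicate 2 or 4 labelled knockout (limma adjusted p = 0.0552 to 0.0738). Of 6 macrophage markers 6 were called higher, with summed values of 1064 to 2460 in the controls and 3809 to 5404 in the group labelled knockout, and their part in the protease values was not tested, nor was that of bone cells, whose osteoblast marker mean was 9.998 in control replicate 1, the control highest for Ctsk (4857), and 6.80 to 8.46 in the other controls.

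The elastin receptor complex, through which cells sense elastin fragments, consists of the products of Glb1, Neu1 and Ctsa. Ctsa had a small difference without overlap between the groups (0.38, SE 0.10, limma adjusted p = 0.0270), and Glb1, whose spliced form binds elastin peptides, had one of 1.30 (limma adjusted p = 0.0376). Neu1 had means of 376 ± 11.3 and 374 ± 27.5, a difference of -0.01 (SE 0.09, limma adjusted p = 0.949). The call of Ctsa was lost under the replicate block, in the female libraries and on leaving out control replicate 2 or 4, or replicate 1 or 4 labelled knockout (limma adjusted p = 0.0522 to 0.108). The call of Glb1 was lost with edgeR, under quantile normalisation, in the female libraries and on leaving out control replicate 2, 3 or 4, or replicate 1, 3 or 4 labelled knockout (adjusted p = 0.0523 to 0.146).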

How the data were processed

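Per the labels and the submitters' processing notes, the authors aligned reads to mm10 (HISAT2 is named), counted them per gene with featureCounts and normalised and filtered them with DESeq2; annotation, strand and filter values are not given in the sources used here. The deposited values are a normalised signal, the read count divided by 1 size factor per library: in all 8 columns 100% of values were whole multiples of 1 step within 0.01, which gave the reads back (13991000 to 17411617 per library). For control replicate 2 and for the first library labelled knockout, this step lay close to 1 and carries little information. Symbols were matched to GENCODE M21 (99.2%).

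Genes reaching a value of 10 in 4 or more libraries were fitted with limma 3.58.1 on log2(value + 1), and the pseudocount makes differences of scarce genes too small. Alternatives were pseudocounts of 0.1 and 10, 3 scalings, 2 filters, a replicate block, edgeR 4.0.16 and DESeq2 1.42.0 on recovered reads, a muscle covariate and leaving out each library. A sex term and the female libraries alone (value of 10 in at least 3 of 5) were added after seeing the data. The fit was tested on simulated data. Members, lists and tests were chosen with earlier results of these data known. Named were the members, Loxl2, up to 4 genes of smallest p per pathway list and the closest gene to each member; Mus81, Mapk7, Nt5c3b, Gm9913, Gm30003, Gm26507, Elane, Prtn3 and the other genes of the closing section were picked with their values in view.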

Additional observations from a re-analysis of the deposited data

Results flagged for a closer look

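In groups of 4 libraries, a value was marked when its gap to the nearest other library, as a share of the group's range, exceeded Dixon's 95% critical value. Of 68 groups examined 5 were marked, and chance marks about 1 in 20. Control replicate 3 was marked 3 times as the highest control, with 176.7 for Mfap2 (the other controls read 48.5 to 60.6), 1135 for Loxl2 and 5742 for Mmp2. Knockout replicate 3 was marked as the lowest of its group for Fbln1 at 333.9 and as the highest for Neu1 at 415.4. Without control replicate 3, Mfap2, Fbln1, Efemp2 and Emilin1 stayed called. In Mfap5 the gap of control replicate 3 fell just short of the limit.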

How the results depend on the processing

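The fit with the skeletal muscle score as covariate called 0 genes, 0 elastic fibre members and 0 pathway genes (limma, with 621 genes, 0 members and 2 pathway genes at an unadjusted p under 0.05), and Loxl2 was 0.64 (limma adjusted p = 0.993). In that fit the log2 difference changed sign for Fbn1 (-1.14), Fbn2 (-3.00), Fbln2 (-0.76), Fbln5 (-0.27), Mfap5 (-1.75), Adamts10 (-0.018), Fbln7 (-0.38), Ltbp2 (-1.57), Ltbp3 (-0.25), Ltbp4 (-0.024), Loxl1 (-0.14), Ctsk (-0.22) and Neu1 (0.25). Neu1, near 0, also changed sign under the scaling without muscle (0.14), with edgeR (0.0023), in the female libraries (0.0047) and in 5 fits without a library (0.0019 to 0.0095, the lowest of all 8 such fits being -0.060 without knockout replicate 3). In the other 20 settings 4 or 5 members were called, and leaving out a library gave 4 to 5. Over all genes the calls numbered 3461 in the reported fit, 3324 with edgeR, 4125 with DESeq2, 2018 with the replicate block, 905 in the female libraries, and 1740 (without knockout replicate 4) to 3832 without a library, with 1909 without control replicate 2 and 2209 without control replicate 4. Pathway genes called numbered 16 in the reported fit, 10 in the female libraries and 9 to 16 without a library. For Loxl2 the difference was 1.44 with the replicate block, 1.23 with edgeR, 1.23 with DESeq2 and 1.24 to 1.91 without a library. The Fbln2 to Fbln1 ratio differed by -1.13 with the replicate block (exact permutation p = 0.125, the smallest that 4 pairs allow) and by -1.31 to -0.91 without a library. The cause of these changes was not tested, and some of the fits also held fewer libraries. Libraries of the same replicate number correlated at 0.21, -0.12, -0.23 and -0.06 in their deviations from the group means. These values gave no sign that the numbers pair the libraries, and a pairing that leaves no such correlation was not tested. With 4 libraries a group and 7 to 105 reads, Fbn2 was the member measured least precisely.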

Other observations

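A set of markers of adventitial fibroblasts, which line vessels and fascia, was looked up after the values of Fbn1 and Mfap5 had been seen. Pi16 read 446, 293, 466 and 320 in the control libraries and 312, 1288, 352 and 629 in the libraries labelled knockout, highest in knockout replicates 2 and 4. Clec3b read 471, 413, 827 and 963 in the control libraries and 428, 1308, 469 and 1069 in the libraries labelled knockout, with the same pair highest. Dpp4 did not follow, at 59.5, 6.06, 59.8 and 74.5 in the control libraries and 62.8, 99.2, 30.4 and 56.3 in the libraries labelled knockout. Cd34 and Ly6a were also highest in knockout replicates 2 and 4. Of the 5 markers 0 were called by limma or edgeR and 2 by DESeq2, and 2 had an unadjusted limma p under 0.05, Ly6a having the smallest adjusted p (0.69, limma adjusted p = 0.0567).

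Of the genes closest in profile to the variable members, Cd248 read 281, 222, 578 and 389 in the control libraries and 382, 1055, 376 and 963.8 in the libraries labelled knockout. Cd80, an immune co-stimulatory ligand, read 40.0, 32.3, 152 and 53.7 against 40.9, 211, 42.4 and 231.5, and Gldn, which encodes gliomedin of Schwann cells, read 44.3, 37.4, 110 and 20.8 against 38.9, 204, 40.2 and 199.8. All 3 were highest in knockout replicates 2 and 4, with control replicate 3 next. Of these 3 libraries 2 are male and 1 is female, and with a sex term in the fit Fbn1 was called (1.38, limma adjusted p = 0.0288), while Mfap5 (0.97, limma adjusted p = 0.236), Fbln2 (0.74, limma adjusted p = 0.0644) and Fbn2 (0.74, limma adjusted p = 0.536) were not.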
